A study of Homo sapiens with 17 samples.

Results

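Protein arginine methyltransferases are the enzymes that place methyl groups on arginine side chains of other proteins. The deposited table held 25548 gene symbols, and 8 of them were taken as this family because their symbols name it: PRMT1, PRMT2, PRMT3, CARM1 (also called PRMT4), PRMT5, PRMT6, PRMT7 and PRMT10. The family was picked out because PRMT10 was higher at both doses and all times in an earlier look at these same libraries. The dose differences of PRMT10 are therefore given below as a description with no test, and tests are given for its 7 relatives and for comparisons that did not choose it.

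RNA was sequenced from Jurkat cells, a human T cell leukaemia line, exposed to ILT3.Fc, a soluble fusion of the outer part of the inhibitory receptor ILT3 with an antibody Fc portion. The exposed groups received 25 or 12.5 µg/ml for 6, 12 or 24 h, and cells at 0 µg/ml for the same times were the reference. Of the 9 groups, 8 held 2 libraries and the group at 0 µg/ml for 12 h held 1, which made 17 libraries. All groups were 1 cell line grown in one culture medium, and the labels name no control Fc protein. The labels say that samples were made in duplicate without saying whether the duplicates were separate cultures, and p-values therefore measure no more than the spread between these samples, which can be technical.

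Members of the family use S-adenosylmethionine as the methyl donor and fall into types by the mark they leave: asymmetric dimethylarginine (PRMT1, PRMT2, PRMT3, CARM1 and PRMT6), symmetric dimethylarginine (PRMT5 and the enzyme listed here as PRMT10), or monomethylarginine alone (PRMT7). Their best known substrates are histones, RNA-binding proteins and splicing factors, and in T cells PRMT5 and PRMT1 are known for roles in activation and cytokine expression. The gene listed as PRMT10 is named PRMT9 in current RefSeq, with PRMT10 kept as a synonym. Its known substrate in human cells is SF3B2, a subunit of the SF3B complex that recognises the branch point during splicing.

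Values are FPKM, that is, fragments per kilobase of gene, scaled to the fragments mapped in that library, so levels can be set against each other between genes. Fold differences are on the log2(FPKM + 1) scale, on which changes of weakly expressed genes look smaller than they are, and a gene was called when its limma p was under 0.05 after Benjamini-Hochberg adjustment, made over the full set of 12015 tested genes. All 8 members passed the filter of a mean FPKM of at least 1, as 47% of all symbols did. Between 11842 and 12016 genes per library reached an FPKM of 1, their depth relative to the deepest was 0.67 to 1, and the absolute depth is unknown. Duplicates correlated across genes at Pearson r of 0.980 to 0.986. One 6 h library, replicate 1 of 12.5 µg/ml, was set apart by the highest sum of FPKM (557389, against 504363 in the lowest library) and by a rank correlation of its deviations with gene length of -0.60. Replicate 2 of 25 µg/ml at 24 h also stood apart, with a rank correlation of its deviations with GC content of 0.56. All 8 T cell markers examined were present, at means of 30.3 to 547 FPKM (summed level 1506 to 1655 at 25 µg/ml, 1562 to 1702 at 12.5 µg/ml and 1514 to 1607 at 0 µg/ml), and the erythroid markers HBB and HBG1 were listed at 0 in every library. The B cell gene CD79A, at a mean of 39.5 FPKM, was the one marker of another cell type above 1 FPKM. The summed B cell markers were at 37.9 to 41.1 FPKM at 25 µg/ml, 34.3 to 48.2 FPKM at 12.5 µg/ml and 33.4 to 41.2 FPKM at 0 µg/ml.

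Promoters are shown for PRMT10, the member that chose the family, and for PRMT2, the single relative called at 25 µg/ml. Each sequence is the 250 bases upstream of the gene start in RefSeq on GRCh38.p14, written 5′ to 3′ on the strand of the gene. That of PRMT10 is chr4:147684164-147684413 on the minus strand, and that of PRMT2 is chr21:46635424-46635673 on the plus strand. Capitals mark the GC box, GGGCGG or its complement CCGCCC on either strand.
PRMT10: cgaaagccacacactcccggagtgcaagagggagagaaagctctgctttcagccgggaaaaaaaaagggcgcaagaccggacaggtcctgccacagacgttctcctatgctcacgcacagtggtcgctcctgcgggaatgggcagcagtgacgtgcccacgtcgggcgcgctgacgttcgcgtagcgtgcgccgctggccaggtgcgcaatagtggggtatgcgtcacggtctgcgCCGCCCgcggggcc
PRMT2: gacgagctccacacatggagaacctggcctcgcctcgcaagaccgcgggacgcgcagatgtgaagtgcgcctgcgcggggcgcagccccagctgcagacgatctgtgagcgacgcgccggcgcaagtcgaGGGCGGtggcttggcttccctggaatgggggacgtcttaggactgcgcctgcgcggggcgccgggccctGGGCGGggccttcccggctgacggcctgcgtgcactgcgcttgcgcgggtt
The PRMT10 promoter had 64.8% GC, 27 CpG dinucleotides and 1 GC box, and that of PRMT2 had 72.0% GC, 32 CpG dinucleotides and 2 GC boxes. A GC box stood in at least 1 listed promoter of 6 of the 8 family genes, and in 42.6% of all 35116 promoters of this length. The exceptions were PRMT5 and PRMT6. The CCAAT box, searched as CCAAT or ATTGG, stood in the promoters of PRMT1 and PRMT5 and in neither of the promoters printed, against 32.0% of all promoters. These matches are a description of the letters in the windows.

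The 8 genes spanned a wide range of levels in these cells, and their order was nearly fixed across the 17 libraries. PRMT1, the enzyme that makes most asymmetric dimethylarginine in mammalian cells, was the most abundant at a mean of 251.5 FPKM (SD 14.5, n = 17) and made up 46.7% of the summed family mean. PRMT5, the main maker of symmetric dimethylarginine, followed at 131 FPKM (SD 6.34). These 2 genes were above every other member in 17 of 17 libraries.

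CARM1, a coactivator that methylates histone H3 and splicing factors, averaged 40.9 FPKM (SD 2.80), and PRMT2, a coactivator with an SH3 domain and weak methyltransferase activity, averaged 31.5 FPKM (SD 2.67). PRMT7 averaged 29.1 FPKM (SD 1.13), PRMT3, a cytosolic enzyme whose main substrate is the ribosomal protein RPS2, 24.5 FPKM (SD 1.55), and PRMT6, a nuclear enzyme that methylates histone H3, 18.2 FPKM (SD 1.41). PRMT10 was the lowest, at 12.1 FPKM (SD 1.92). Only 2 neighbouring pairs had ranges that overlapped. CARM1 was above PRMT2 in 17 of 17 libraries, and PRMT2 was above PRMT7 in 15 of 17. The SD of PRMT10 pools the doses that chose it, and its 5 libraries at 0 µg/ml ran from 9.25 to 9.90 FPKM.

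**Figure D1:**
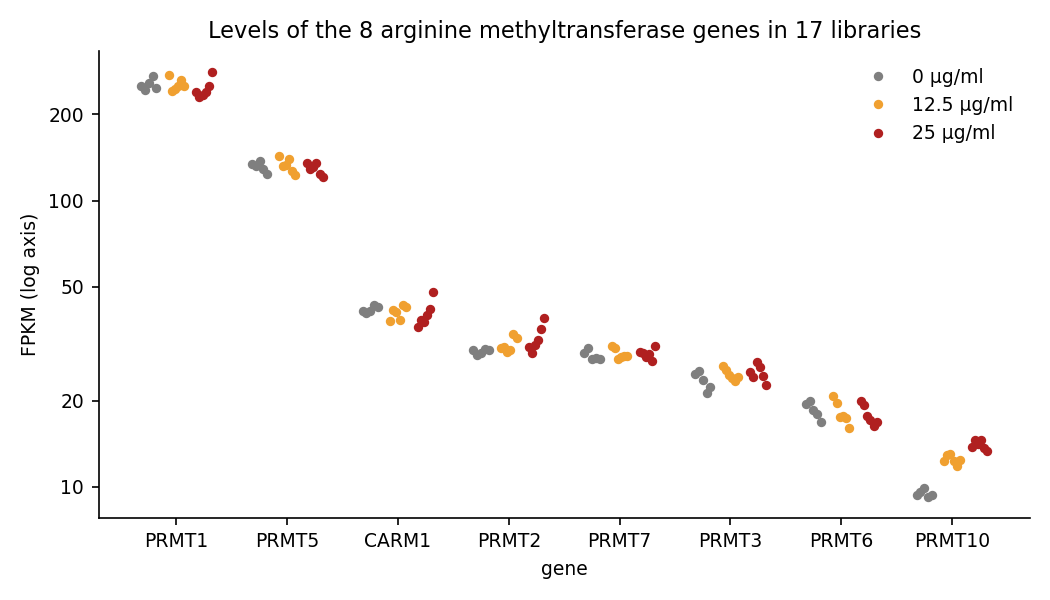
FPKM (log axis) of the 8 family genes in each of the 17 libraries, ordered by mean level, with points coloured by ILT3.Fc dose and run in order of time within a dose. PRMT1 lies between 230 and 281 FPKM and PRMT10 between 9.25 and 14.6 FPKM, and the doses separate for PRMT10 alone.

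Of the relatives named in textbooks but outside the family as the table writes it, PRMT8, a membrane-bound enzyme known from brain, was listed at 0 in all 17 libraries. FBXO11, an F-box protein that once carried the name PRMT9, averaged 9.62 FPKM (SD 0.358). Its difference at 25 against 0 µg/ml over all times was 0.04 (95% interval -0.03 to 0.11, limma adjusted p = 0.534).

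PRMT10 was higher in every exposed library than in every library at 0 µg/ml, and it was ordered by dose at each time. At 6 h its FPKM was 9.36 and 9.57 at 0 µg/ml, 12.4 and 13.0 at 12.5 µg/ml, and 13.8 and 14.6 at 25 µg/ml. At 12 h it was 9.90 in the single library at 0 µg/ml, 13.0 and 12.3 at 12.5 µg/ml, and 14.1 and 14.6 at 25 µg/ml. At 24 h it was 9.25 and 9.40 at 0 µg/ml, 11.8 and 12.4 at 12.5 µg/ml, and 13.6 and 13.3 at 25 µg/ml. The 3 doses did not overlap at any time, and over all times the lowest library at 25 µg/ml (13.3) was above the highest at 12.5 µg/ml (13.0).

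As ratios of mean FPKM to 0 µg/ml, PRMT10 was at 1.499, 1.45 and 1.44 for 25 µg/ml at 6, 12 and 24 h, and at 1.34, 1.28 and 1.30 for 12.5 µg/ml at those times. On the log2 scale the difference over all times was 0.51 (SE 0.029) at 25 µg/ml and 0.35 (SE 0.029) at 12.5 µg/ml, both against the same libraries at 0 µg/ml. Ranked by size among the 12015 genes, the first was 66th from the top and the second 82nd. The values of 25 against 0 µg/ml within sequencing lanes were 0.50 in lane 4 and 0.53 in lane 5. Lane 4 took every 24 h library plus the first replicates of the 6 h groups, and lane 5 took every 12 h library plus the second replicates of the 6 h groups.

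The dose order was rare in the table as a whole. Libraries at 25 µg/ml lay above all libraries at 0 µg/ml at each of the 3 times in 7.74% of genes, and among the 8 family genes in PRMT10 alone. Libraries at 12.5 µg/ml lay above those at 0 µg/ml at each time in 3.15% of genes, and in the family in PRMT10, PRMT2, PRMT3 and PRMT7. For those 3 relatives some of the gaps were small, such as 29.5 and 30.03 FPKM of PRMT2 at 12.5 µg/ml for 12 h, against 29.5 FPKM at 0 µg/ml. The full order, 25 above 12.5 above 0 µg/ml at each time without overlap, was met by 21 genes, or 0.175%, and PRMT10 was the family's single case. Since these values chose the family, nothing is read from the counts.

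**Figure D2:**
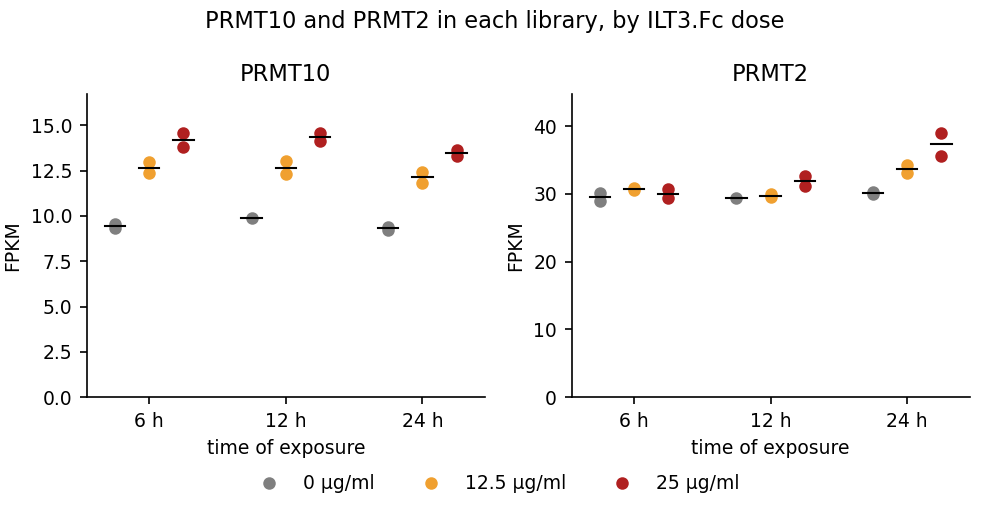
FPKM of PRMT10 and of PRMT2 in each library at 6, 12 and 24 h, with 1 point per library, coloured by dose, and a bar at the group mean. PRMT10 steps up with dose at every time, whereas PRMT2 at 25 µg/ml lies clear of 0 µg/ml mainly at 24 h.

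Comparisons that did not choose PRMT10 asked whether the higher dose exceeded the lower one and whether the gene drifted with time in untreated culture. Between 25 and 12.5 µg/ml over all times, 0.283% of the 12015 genes and none of the 8 members were called. PRMT10 and PRMT2 had an unadjusted p under 0.05, against 1427 of the 12015 genes. PRMT10 differed by 0.15 (SE 0.027, 95% interval 0.09 to 0.21), with a limma adjusted p of 0.0514 just outside the threshold. It was higher at 25 µg/ml in 6 of 6 libraries, and it was called under 4 of 31 alternative settings. These libraries also entered the comparisons that chose the gene.

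With no ILT3.Fc, PRMT10 differed by -0.02 between 24 and 6 h (95% interval -0.12 to 0.09, limma adjusted p = 0.885). This difference did not pass the test.

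As a share of the summed FPKM of the 8 genes, PRMT10 made up 1.67% to 1.81% in the 5 libraries at 0 µg/ml, 2.14% to 2.45% in the 6 at 12.5 µg/ml and 2.32% to 2.83% in the 6 at 25 µg/ml. The sum itself was 521 to 553 FPKM at 0 µg/ml, 531 to 578 FPKM at 12.5 µg/ml and 515 to 573 FPKM at 25 µg/ml, which overlapped at all doses. In RNA from a whole culture, a change in the cells that hold a transcript and a change in transcript per cell cannot be told apart.

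Among the 7 relatives, PRMT2 was the one that rose. With the 3 times combined, limma called 9.47% of the tested genes at 25 against 0 µg/ml (5.47% higher and 4% lower), and 1 of the 7 relatives. PRMT2 was higher by 0.15 (SE 0.029, limma adjusted p = 0.0116). The call rested on the 24 h libraries.

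PRMT2 stood at 30.1 and 28.9 FPKM at 0 µg/ml, 30.6 and 30.9 at 12.5 µg/ml, and 30.7 and 29.4 at 25 µg/ml after 6 h. After 12 h it was at 29.5 FPKM at 0 µg/ml, 29.5 and 30.03 at 12.5 µg/ml, and 31.2 and 32.6 at 25 µg/ml. After 24 h it was at 30.2 and 29.99 FPKM at 0 µg/ml, 34.3 and 33.2 at 12.5 µg/ml, and 35.7 and 39.0 at 25 µg/ml. At 6 h the libraries at 25 µg/ml overlapped those of both other doses, and those at 12.5 µg/ml lay just above those at 0 µg/ml. At 24 h the 3 doses were separate and in order. How many of all genes had this order at 24 h was not counted.

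At 24 h, where 16.5% of all genes were called for 25 against 0 µg/ml, PRMT2 rose by 0.30 (SE 0.046, limma adjusted p = 0.00262), a ratio of mean FPKM of 1.24, higher in 2 of 2 libraries. This held under 28 of 29 alternatives, among them a correction for GC content and length (0.26, adjusted p = 0.00172) and leaving out the replicate 2 library that stood apart (0.24, adjusted p = 0.0237). It was lost when only the 2 groups compared entered the model (adjusted p = 0.0929). Its value at 12.5 against 0 µg/ml at 24 h was 0.16, with an adjusted p of 0.269.

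Over all times the PRMT2 call was lost without the 24 h libraries, where the value was 0.07 (limma adjusted p = 0.391). It was also lost within each lane, with 0.16 in lane 4 (adjusted p = 0.198) and 0.07 in lane 5 (adjusted p = 0.325). The difference between the 24 h and the 6 h values was tested directly, a comparison in which 3.3% of genes were called. It was 0.27 (SE 0.066, adjusted p = 0.0493), and it passed under 7 of 29 alternatives. Replicate 2 of the 6 h groups ran in lane 5 and both 24 h replicates in lane 4, at each dose alike. A dose difference that varies with lane therefore cannot be told apart from part of this contrast. Within lane 4 the value was 0.27 (adjusted p = 0.344).

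The other 6 relatives were not called at 25 against 0 µg/ml over all times. Their values ran from -0.05 for PRMT1 to 0.09 for PRMT3, and their 95% intervals lay between -0.15 and 0.15. PRMT3, at 0.09 (SE 0.029, limma adjusted p = 0.0871), had an unadjusted p under 0.05, as did 3116 of the 12015 genes. At 12 h it read 27.4 and 26.2 FPKM at 25 µg/ml and 23.6 FPKM in the single library at 0 µg/ml, a difference of 0.17 with an adjusted p of 0.376. PRMT3 was called over all times when replicate 2 of 25 µg/ml at 24 h was left out.

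PRMT1 ranged from 230 to 281 FPKM at 25 µg/ml and from 243 to 273 FPKM at 0 µg/ml. Its highest value was in replicate 2 of 25 µg/ml at 24 h, a library that stood apart. PRMT5 ranged from 121 to 136 FPKM at 25 µg/ml and from 124 to 138 FPKM at 0 µg/ml. CARM1 had 41.8 and 48.0 FPKM at 25 µg/ml for 24 h, against 43.3 and 42.4 FPKM at 0 µg/ml, so its duplicates at 25 µg/ml lay on both sides of the untreated pair. PRMT6 and PRMT7 differed by -0.05 (95% interval -0.12 to 0.02) and 0.03 (95% interval -0.04 to 0.09) over all times.

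**Figure D3:**
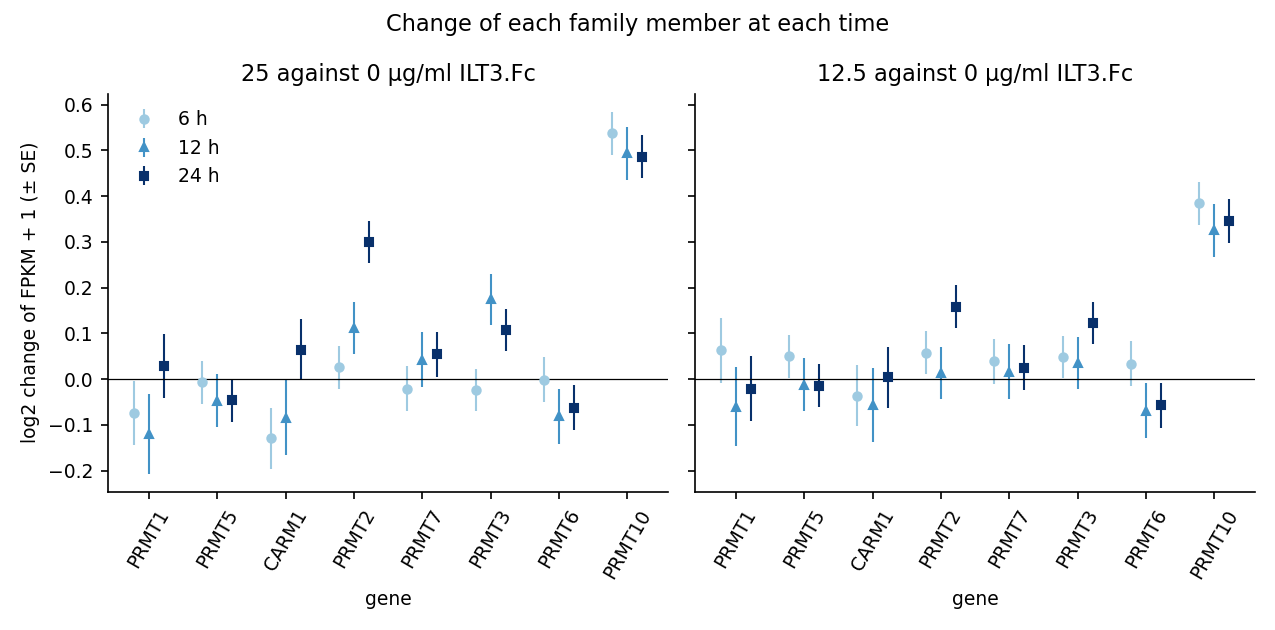
Difference from 0 µg/ml on the log2(FPKM + 1) scale for each family gene, at 25 µg/ml on the left and 12.5 µg/ml on the right, with points for 6, 12 and 24 h and bars of 1 SE from limma. PRMT10 is between 0.33 and 0.54 in all 6 comparisons, and the largest value of any relative is the 0.30 of PRMT2 at 25 µg/ml for 24 h.

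With the 3 times combined, limma called 0.283% of genes and none of the 7 relatives at 12.5 against 0 µg/ml, with values from -0.03 to 0.08. PRMT2 and PRMT3 had an unadjusted p under 0.05, against 1315 of the 12015 genes. At single times none of the 7 relatives was called at 12.5 µg/ml, where 0.025% of genes passed at 6 h, 0.0416% at 12 h and 0.117% at 24 h. Of the relatives, 0, 0 and 2 had an unadjusted p under 0.05 at those times, against 919, 428 and 1167 of the 12015 genes. At 25 µg/ml none was called at 6 h (0.225% of genes) or at 12 h (0.0499% of genes). At those times 0 and 1 had an unadjusted p under 0.05, against 1239 and 1034 of the 12015 genes. In simulated data of this design limma recovered 26.6% of genes changed by 0.25 at 6 h, 10.1% at 12 h and 25.4% at 24 h. A small difference at 1 time was therefore often not detectable in comparisons with few calls. The simulation changed 200 of 12015 genes, whereas 16.5% were called in the data at 24 h for 25 against 0 µg/ml. Its 24 h share may therefore not hold for that comparison.

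Time in culture without ILT3.Fc gave another reference for the size of these differences. Between 24 and 6 h at 0 µg/ml, 2.33% of genes were called and none of the 8 members. PRMT3 and PRMT6 had an unadjusted p under 0.05, against 2248 of the 12015 genes. PRMT3 was at 21.3 and 22.3 FPKM at 24 h, against 24.8 and 25.4 FPKM at 6 h, a difference of -0.20 (95% interval -0.30 to -0.10, limma adjusted p = 0.0512). PRMT6 was at 18.0 and 16.9 FPKM at 24 h, against 19.5 and 19.9 FPKM at 6 h, a difference of -0.17 (95% interval -0.27 to -0.06, adjusted p = 0.0995). Neither pair of groups overlapped, and how many of all genes were likewise separate between these groups was not counted. PRMT3 was called under 6 of 29 alternatives.

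Across the 17 libraries the log2 level of PRMT10 had no common direction with those of its relatives, as a description over libraries that share doses, times and lanes. Pearson r with PRMT10 was 0.50 for PRMT3, 0.39 for PRMT2, 0.13 for PRMT7, 0.00 for PRMT5, -0.14 for PRMT6, -0.30 for CARM1 and -0.35 for PRMT1. Among all tested genes the 5 with the highest r were DHX9, an RNA helicase, at 0.925, C1orf216 at 0.915, RPS6KB1, the S6 kinase, at 0.907, RABGGTB, a subunit of the Rab prenylating enzyme, at 0.902, and ARFGAP3, a regulator of Golgi transport, at 0.901. The 5 with the lowest r were SF3B3 at -0.942, the respiratory chain gene NDUFS1 at -0.911, HYAL3 at -0.909, the ribosome biogenesis gene RRP36 at -0.882 and the condensin gene NCAPG at -0.854.

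Of these 10 genes, ARFGAP3 shared with PRMT10 the full upward dose order at each time. SF3B3, HYAL3 and NCAPG showed the reverse order, which 24 genes, or 0.2%, did. The 10 were picked by correlation with PRMT10 in the same libraries, and PRMT10 was picked for being higher at both doses. Dose order among them therefore follows from the choice, and nothing is read from it. SF3B3 encodes a subunit of the complex that holds SF3B2. Its FPKM at 6 h was 58.8 and 58.9 at 0 µg/ml, 46.4 and 48.3 at 12.5 µg/ml, and 43.0 in both libraries at 25 µg/ml. At 24 h it was 62.2 and 61.6 at 0 µg/ml, 48.7 and 47.0 at 12.5 µg/ml, and 40.7 and 40.5 at 25 µg/ml. The doses did not overlap for SF3B3 at any time.

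Of the 7 tested genes of the complex, 1 was called lower at 25 against 0 µg/ml over all times, where 4% of all genes were. It was SF3B3, at -0.51 (SE 0.020, limma adjusted p = 3e-07), a gene already singled out above from the same libraries, and the other 6 were between -0.08 and 0.05. The median of the 7 was -0.02, against 0.02 for all genes tested. SF3B2, the substrate itself, was at 165 and 158 FPKM at 25 µg/ml for 24 h, against 147 and 153 FPKM at 0 µg/ml. Over all times it differed by 0.05 (95% interval -0.01 to 0.11, adjusted p = 0.2999).

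PRMT5 works in a complex with WDR77, and CLNS1A and RIOK1 are adapters that bring it to different substrates. None of 7 tested genes for such partners and for regulators of PRMT1 was called over all times by limma, against 9.47% of all genes. With an unadjusted p under 0.05 there was 1, against 3116 of 12015 genes, which was RIOK1 at -0.11 (SE 0.031, limma adjusted p = 0.0503). At 24 h, where 5.76% of all genes were called lower, RIOK1 fell by 0.18 (limma adjusted p = 0.0347), a call kept under 20 of 29 alternatives. It was at 45.8 and 49.9 FPKM at 25 µg/ml, against 53.4 and 54.9 FPKM at 0 µg/ml. The RIOK1 call was lost without replicate 2 of 25 µg/ml (-0.12, adjusted p = 0.248) or either replicate of 0 µg/ml at 24 h, and without either replicate of 25 µg/ml at 12 h. WDR77 and CLNS1A differed over all times by 0.04 (95% interval -0.02 to 0.10) and 0.01 (95% interval -0.07 to 0.09).

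All the enzymes draw on the same methyl donor. Of 9 tested genes that make it or recycle its product, 1 was called higher and 4 were called lower at 25 µg/ml over all times, against 5.47% and 4% of all genes. Their median was -0.02, near the 0.02 of all genes. MTRR, which reactivates methionine synthase, fell by 0.21 (SE 0.028, limma adjusted p = 0.00138), and ADK, which removes the adenosine left after methyl transfer, fell by 0.20 (SE 0.036, adjusted p = 0.00707). MAT2A, which makes S-adenosylmethionine in lymphoid cells, fell by 0.13 (SE 0.026, adjusted p = 0.0104).

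MTRR stood at 16.1 and 15.2 FPKM at 25 µg/ml for 24 h, against 19.2 and 20.1 FPKM at 0 µg/ml. Its ratios of mean FPKM at 25 to 0 µg/ml were 0.87, 0.90 and 0.80 at 6, 12 and 24 h. MAT2A was also lower at the later time at 0 µg/ml, with 239 FPKM at 24 h (SD 1.28, n = 2), against 284 FPKM at 6 h (SD 2.74, n = 2), a difference of -0.25 (limma adjusted p = 0.0146). This MAT2A call was lost when any 1 of those 4 libraries was left out (adjusted p of 0.0902 to 0.113). Lane 4 held both of the untreated 24 h libraries and 1 of the 6 h ones, so lane and time cannot be fully told apart. Within lane 4 the MAT2A difference was -0.26. At 25 µg/ml MAT2A was at 201 FPKM at 24 h (SD 10.7, n = 2) and 271 FPKM at 6 h (SD 2.64, n = 2).

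AHCYL2, a relative of the enzyme that hydrolyses S-adenosylhomocysteine, rose by 0.19 (SE 0.045, limma adjusted p = 0.0251). The AHCYL2 call held in 11 of 16 fits that left out 1 library. It was lost without replicate 1 at 0 µg/ml for 24 h, either replicate at 0 µg/ml for 6 h, or replicate 2 of 25 µg/ml at 6 or 12 h, with values of 0.18 to 0.19 and adjusted p of 0.0605 to 0.0704, and also without the 12 h libraries (0.20, adjusted p = 0.0900). AHCYL1, the fifth called gene of this list and named after its value was seen, fell by 0.10 (adjusted p = 0.0355), a call that held in 7 of the 16 fits. AHCY, the hydrolase itself, was at 0.10 over all times (limma adjusted p = 0.0667) and rose by 0.22 at 24 h (SE 0.051, adjusted p = 0.0151). The AHCY call at 24 h was lost with median centring (0.18, adjusted p = 0.0522) and with only the groups compared (0.22, adjusted p = 0.0935). It was also lost in lane 4 alone (0.22), and without replicate 2 of 25 µg/ml (0.20) or of 0 µg/ml (0.19) at 24 h. MTAP, which clears methylthioadenosine, an inhibitor of PRMT5, was listed at 0 in all 17 libraries.

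**Figure D4:**
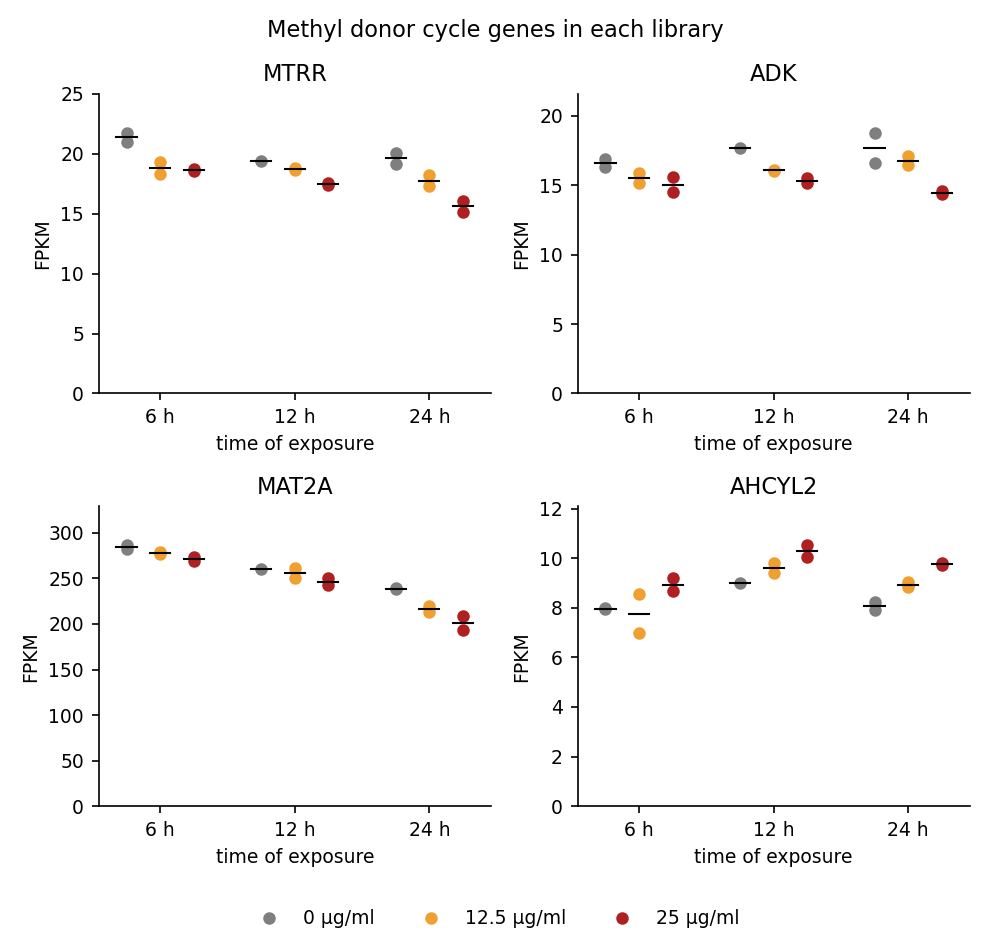
FPKM of MTRR, ADK, MAT2A and AHCYL2 in each library at 6, 12 and 24 h, with 1 point per library, coloured by dose, and a bar at the group mean. At 24 h, MTRR is at 16.1 and 15.2 FPKM at 25 µg/ml, against 19.2 and 20.1 FPKM at 0 µg/ml. AHCYL2 at 25 µg/ml lies above 0 µg/ml at each time without overlap, as 7.74% of all genes do.

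Tudor domain proteins read methylated arginine. Of 7 tested reader genes, 1 was called higher and 1 lower over all times, against 5.47% and 4% of all genes. TDRKH, a Tudor domain protein of the germline small RNA pathway, rose by 0.13 (limma adjusted p = 0.0292), and SND1, a Tudor nuclease, fell by 0.08 (adjusted p = 0.0495). Of 16 fits that left out 1 library, 10 kept the call of TDRKH and 3 that of SND1. TDRD3 and SMN1 were at -0.03 each, with 95% intervals of -0.11 to 0.05 and -0.11 to 0.06. SMN1 shares nearly all its sequence with SMN2, so its value is uncertain. None of 3 tested removal genes was called by limma or had an unadjusted p under 0.05, against 9.47% and 3116 of the 12015 genes. JMJD6, reported as an arginine demethylase, was at 0.00 (95% interval -0.10 to 0.10).

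Substrates are given by the enzyme known to methylate them. Over all times, 2 of 17 tested PRMT1 substrates were called lower and none higher, against 4% and 5.47% of all genes. One of them was SERBP1, an RNA-binding protein, at -0.11 (limma adjusted p = 0.0266), a call kept in 8 of 16 fits that left out 1 library. None of 5 PRMT5 substrates and none of 8 CARM1 substrates was called, against 9.47% of all genes. An unadjusted p under 0.05 was met by 1 and 0 of them, against 3116 of 12015 genes. SNRPB, SNRPD1 and SNRPD3, the Sm proteins of the spliceosome, were at 0.02, -0.05 and -0.01. PABPC1, a substrate of CARM1, was at 0.03, and RPS2, the substrate of PRMT3, at 0.05 (95% interval -0.06 to 0.17).

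At 24 h, 9 of the 17 PRMT1 substrate genes were called lower at 25 than at 0 µg/ml and none was called higher, where 5.76% of all genes were called lower and 10.7% higher. The median of the 17 was -0.16, against 0.04 for all genes. At 6 h none of the 17 was called, against 0.225% of all genes, and the median was 0.04. At that time 3 of the 17 had an unadjusted p under 0.05, against 1239 of 12015 genes. HNRNPA2B1 was at 618 FPKM (SD 14.3, n = 2) at 25 µg/ml for 24 h, against 734 FPKM (SD 13.6, n = 2) at 0 µg/ml, and EWSR1 at 149.8 FPKM (SD 3.45, n = 2), against 175 FPKM (SD 8.24, n = 2). HNRNPA2B1 and EWSR1 were named after their values were seen, as were TAF15, HNRNPA1, HNRNPK, KHDRBS1 and NCL below.

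Among the 9 genes were EWSR1, TAF15, HNRNPA1, HNRNPA2B1, HNRNPK, KHDRBS1, NCL and SERBP1, which encode abundant RNA-binding proteins, and the values of the 9 lay between -0.25 and -0.16. FBL, the nucleolar methyltransferase fibrillarin, was at -0.01 and was not called. PRMT1 itself was at 0.03 at 24 h (95% interval -0.13 to 0.18, limma adjusted p = 0.816). At 12.5 against 0 µg/ml for 24 h limma called none of the 17, against 0.117% of all genes. Of the 17, 2 had an unadjusted p under 0.05, against 1167 of 12015 genes. The count of 9 at 25 µg/ml became 2 without replicate 2 of 25 µg/ml, 3 without either untreated 24 h library, 2 in lane 4 alone and 0 when only the 2 groups compared entered the model, and no gene of the list was called higher under any of these.

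**Figure D5:**
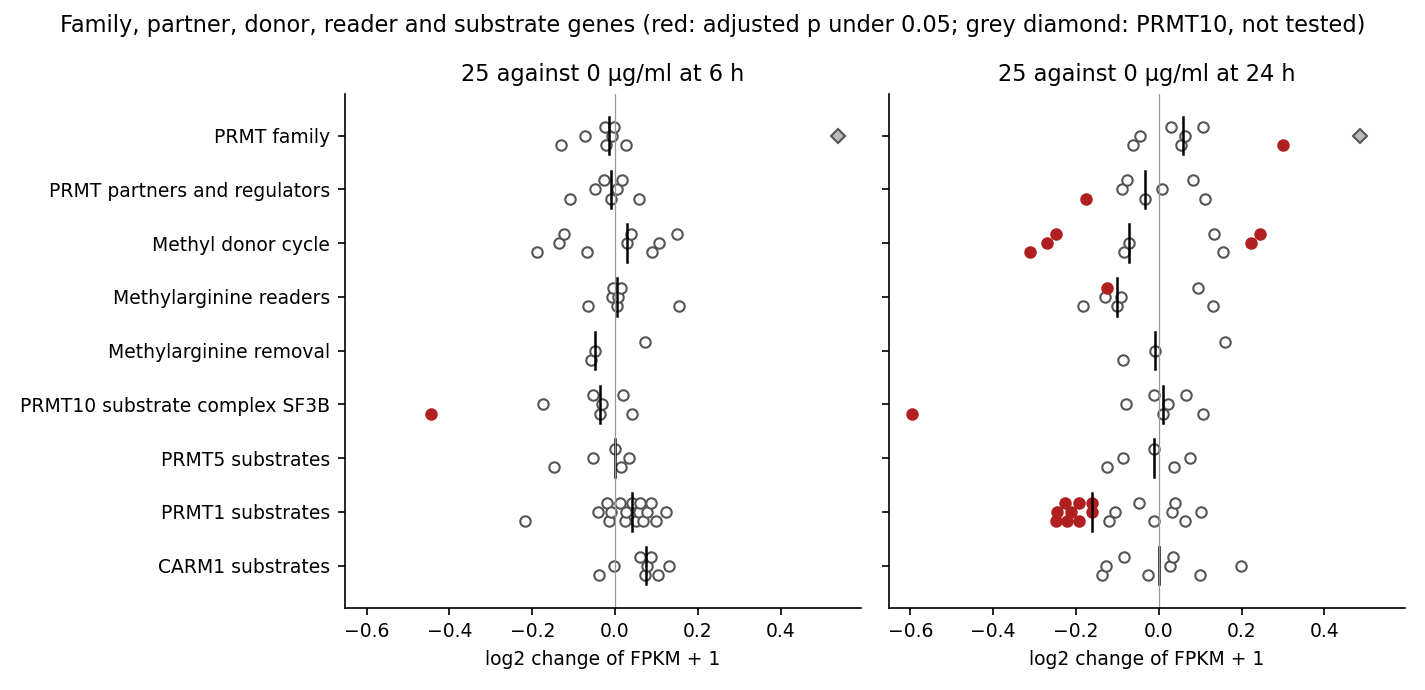
Differences of 25 against 0 µg/ml on the log2(FPKM + 1) scale at 6 h on the left and 24 h on the right, with 1 point per tested gene grouped by role and a vertical bar at each list's median. Red points passed a limma adjusted p of 0.05, and PRMT10 is a grey diamond because its values chose the family. At 24 h, 9 of 17 PRMT1 substrates are red, each below 0.

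The lists share the lane and time limits of the members. Of the 10 genes called over all times among the partner, donor, reader, removal and substrate lists, 1 passed within lane 4 and 1 within lane 5, and all 10 kept their sign in both lanes. Since the 10 were chosen by a fit to both lanes together, their sign within a lane follows largely from that choice. Without the 24 h libraries 1 of the 10 was called. SF3B3 was the one that passed each time, and no gene of the methyl donor list did. The T cell marker CD28 was also higher, by 0.14 (limma adjusted p = 0.0103), and its part in these results was not tested. The library kit and counting are not stated to keep strand. Reads of PRMT5 and its antisense gene PRMT5-AS1, of CARM1 and YIPF2, and of PRMT7 and SMPD3, which overlap in RefSeq, therefore cannot be told apart. RefSeq also lists DSTNP1 overlapping PRMT2, MIR5088 overlapping PRMT1 and LOC124902808 overlapping PRMT3. It further lists LOC124903285 overlapping PRMT5, and LOC124903789 and RNU4-30P overlapping PRMT7.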

How the data were processed

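The authors deposited FPKM values, 1 column for each of the 17 libraries. Per the labels' protocols, RNA came from an RNeasy kit and libraries from a TruSeq kit with selection of polyadenylated RNA. TopHat2 2.1.0 is named per the submitters' processing notes, and for the quantifier, annotation and genome build the entry is: not given in the sources used here. FPKM keeps no read counts, so no count test was run. A gene listed at 0 may be one whose estimate failed. For 45 symbols that occurred again, the line of highest mean FPKM was used.

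The genes whose mean FPKM reached 1 were tested on log2(FPKM + 1) with limma 3.58.1 in R 4.3.3, with 1 mean for each of 9 groups, moderated with a trend. There were 8 residual and 3 prior degrees of freedom, and the single untreated 12 h library was assumed to vary like the others. Effects over all times are means of those at 6, 12 and 24 h. Tests were two-sided, with Benjamini-Hochberg adjustment over all 12015 genes in each of 11 comparisons.

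The members, the 16 gene lists and the tests were chosen with earlier results of these data known. Genes named are the members, PRMT8 and FBXO11, up to 4 called genes of each list by smallest p, fixed role genes, and the 5 genes most and least correlated with PRMT10. Others are said to have been named after their values were seen. A few genes of the lists entered the counts but are not reported here by name.

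The limma steps were checked on 20 simulated sets with 200 of 12015 genes changed. With the 3 times combined, 25 against 0 µg/ml recovered 69.2% of the changes of 0.25 and 95.4% of those of 0.5. In the data a larger share of genes was called there, 9.47%, so recovery in the data may differ. Gene GC content and length were read from GENCODE v29, which matched 92.6% of tested genes. Alternatives changed the pseudocount, filter, scaling, variance trend, lane, times, samples in the model and replicate block, or dropped 1 library at a time.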

Additional observations from a re-analysis of the deposited data

Results flagged for a closer look

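For 5 named genes the difference between 25 and 0 µg/ml differed between 24 h and 6 h by limma's interaction test, over groups of 2 libraries each. The test called 3.3% of the 12015 genes. EWSR1, HNRNPA1 and HNRNPA2B1 were named after their values were seen, and NCAPG was picked by correlation with PRMT10 in these libraries. Those same libraries enter the test, so for EWSR1, HNRNPA1, HNRNPA2B1 and NCAPG it is a description. The values below are the 24 h difference minus the 6 h difference on the log2(FPKM + 1) scale. PRMT2 had 0.27 (adjusted p = 0.0493), higher at 24 h. Among PRMT1 substrates, EWSR1 had -0.29 (adjusted p = 0.0248), HNRNPA1 -0.34 (adjusted p = 0.0456) and HNRNPA2B1 -0.32 (adjusted p = 0.0284). NCAPG, one of the genes least correlated with PRMT10, had -0.27 (adjusted p = 0.0493). Of 29 alternatives, EWSR1 passed under 18, HNRNPA2B1 under 16, HNRNPA1 under 9, PRMT2 under 7 and NCAPG under 6. The 24 h libraries ran in lane 4 and the 6 h groups were split between both lanes. A dose difference that varies with lane therefore cannot be fully told apart from one that varies with time.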

How the results depend on the processing

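Up to 31 settings per comparison were tried, and the cause of the shifts was not tested. Counts over all genes moved too, so changed family counts are not read as a result about its members. At 24 h for 25 against 0 µg/ml, 1978 of all genes were called, and 12 to 3071 under alternatives. For 25 against 12.5 µg/ml, 34 genes were called. That became 36 with a pseudocount of 0.1, 30 with a mean FPKM of at least 5 and 191 after the GC and length correction. The count of all genes called for 25 against 0 µg/ml over all times was 1138, and became 1999 after correction for GC content and length, 488 without the 12 h libraries, 46 without the 24 h libraries, 42 in lane 4, 8 in lane 5, and 613 to 2034 when 1 library was left out. The count of PRMT relatives called there was 1, and became 0 in lane 4, in lane 5 and without the 24 h libraries, and 1 to 2 when 1 library was left out. At 24 h the count of 1 became 3 after the GC and length correction, 0 with only the groups compared, and 1 to 2 when 1 library was left out. For 25 against 12.5 µg/ml the count of 0 members became 1 (PRMT10) with a pseudocount of 0.1, a mean FPKM of at least 5 or the GC and length correction, and 0 to 1 when 1 library was left out. For 24 against 6 h at 0 µg/ml it went to 1 with a mean FPKM of at least 5 and with the GC and length correction, and 0 to 1 when 1 library was left out. For the difference between 24 h and 6 h the count of 1 (PRMT2) became 0 with no filter, median centring, quantile normalization, no variance trend, lane as covariate, lane 4 alone, no 12 h libraries and only the groups compared, and 0 to 1 when 1 library was left out.

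Of 2600 member values under alternatives, 87 changed sign while called in neither setting, 62 lost a call, 14 gained one and 0 reversed a called sign. PRMT10 at 25 against 0 µg/ml over all times was between 0.47 and 0.54. Over all genes, calls ranged from 12 to 3071 at 24 h (25 against 0 µg/ml), 0 to 133 at 6 h, 4 to 84 at 12 h, 2 to 895 for 12.5 against 0 µg/ml over all times, 2 to 1474 for 25 against 12.5 µg/ml, 2 to 1029 for time at 0 µg/ml and 5 to 1162 for the difference between times.

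The deviations showed no pairing of libraries by replicate number, which cannot tell whether same-numbered libraries were handled together. The correlation of deviations between same-numbered libraries was -0.18 to 0.03 over 7 pairs of groups, and none exceeded 0.1. With the replicate number as a block, 969 genes and 1 relative were called for 25 against 0 µg/ml over all times, and the count for the difference between times went to 0. Leaving out the single untreated 12 h library gave no value for comparisons that need it. What depth limits was not tested, since absolute depth is unknown. Groups held at most 2 libraries.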
